A study of Rattus norvegicus with 26 samples.

Results

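Hearts of adult female Sprague Dawley rats whose mothers had been kept in low oxygen late in pregnancy were compared with hearts of females from mothers kept in normal air. The comparison used 9 RNA-seq libraries of the 26 in the series, 5 from prenatal hypoxia and 4 from control, and each library came from the heart of an animal 5 months old. The animals themselves were not exposed after birth, so the hypoxic exposure lay months before the tissue was taken. All 9 libraries were made from total RNA of heart tissue. One more library, labelled female control 3, was left out because its RNA goes against that label. Its Y-linked genes Ddx3, Eif2s3y and Kdm5d stood at 18.1, 13.7 and 3.82 FPKM (fragments scaled to transcript length and to the depth of the library), whereas the highest levels in the other 9 libraries were 0.0451, 0 and 0.0215 FPKM, and the 10 male libraries ranged from 17 to 21.8, 11.4 to 14.6 and 4.51 to 6.14 FPKM. Genes entered the comparison when their mean over the 9 libraries was at least 1 FPKM, which kept 12860 of 30044 listed genes. The litters were not named, so hearts of one group may share a dam, and p-values measure only the spread between these hearts. The hearts were sampled as tissue: fewer cells of a type and less RNA per cell cannot be told apart.

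The heart is built of cardiomyocytes, which take up most of its volume, and of endothelial cells, smooth muscle cells and pericytes, fibroblasts and resident immune cells. Cardiomyocytes contract through the sarcomere, release and recapture calcium in each beat and make nearly all of their ATP in mitochondria, chiefly from fatty acids. Low oxygen stabilises hypoxia-inducible factors (HIF), which raise transcription of genes for glycolysis, blood vessel growth and matrix modification, while protein kinase C epsilon (Prkce) is an enzyme known to protect cardiomyocytes from ischaemic injury.

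The scaled fragment totals of the 9 libraries ranged from 7541435 to 8527249, and 17761 to 18720 genes had a level above 0. The RNA was that of working heart muscle. Tnnt2, cardiac troponin T, had the highest level, at 19700 ± 1590 FPKM (SD, n = 4) in control and 16300 ± 2020 FPKM (SD, n = 5) in hypoxia hearts. Myl2, the ventricular light chain of myosin, stood at 3270 ± 207 and 3280 ± 528 FPKM, and the alpha heavy chain Myh6 at 3940 ± 710 and 3890 ± 1300 FPKM. Markers of atrial muscle varied between hearts of both groups. Myl7, the atrial light chain, ranged from 3.13 to 217 FPKM in control hearts and from 10.8 to 559 FPKM in hypoxia hearts, with the highest value in hypoxia 1. Adipocyte RNA was scarce, with Adipoq at 0 FPKM in 7 of the 9 libraries and at most 0.682 FPKM. No gene of the mitochondrial genome list was found in the table.

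No gene met the criteria for a differentially expressed gene (DEG), which required an adjusted p under 0.3 together with a change of more than 1.2-fold. The share called was 0% of 12860 genes, and the smallest adjusted p was 0.9996 (limma on log2(FPKM + 1), Benjamini-Hochberg). Without adjustment, 467 genes (3.63%) had p under 0.05, no more than this threshold passes without any effect. Of these, 418 (3.25%) also differed by more than 1.2-fold and are called nominal here, 219 of them higher (1.7% of genes tested) and 199 lower (1.55%) in hypoxia hearts. The groups did not overlap for 164 genes (1.28%), 71 of them higher (0.552%) and 93 lower (0.723%) in hypoxia hearts. The median log2 fold change of all genes was −0.007, and 48.2% were positive. The median standard error was 0.16 on the log2 scale. The 95% interval of the difference lay within 1.5-fold in either direction for 8633 genes (67.1%) and within 2-fold for 11939 genes (92.8%).

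Since no gene was called, the genes with the smallest unadjusted p in each direction are given as values. All 24 had an adjusted p of 0.9996.

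Among the genes that were higher after prenatal hypoxia, the smallest unadjusted p belonged to Cldn19, a tight junction claudin, which was at a low level throughout. Its control mean, 0.482 FPKM, was below the filter of 1 FPKM, so it entered only through the hypoxia hearts. Its FPKM in control hearts was 0.387, 0.356, 0.704 and 0.481, and in hypoxia hearts 1.01, 2.16, 1.1, 1.52 and 1.34. The lowest hypoxia heart was above the highest control heart, and the log2 fold change was 0.70 ± 0.174 (standard error, SE; unadjusted p = 0.0024). P4ha2, a prolyl hydroxylase of collagen and a known HIF target, read 7.99, 5.43, 7.29 and 7.61 FPKM in control and 9.86, 13, 10.9, 11.2 and 8.81 FPKM in hypoxia hearts. These groups did not overlap either (log2 fold change 0.54 ± 0.137 SE, unadjusted p = 0.00263).

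Notch3, the Notch receptor of vascular smooth muscle and pericytes, was at 6.79, 6.01, 5.59 and 6.3 FPKM in control and at 8.01, 8.76, 8.35, 7.47 and 7.62 FPKM in hypoxia hearts. Every hypoxia heart was above every control heart, and the log2 fold change was 0.33 ± 0.0946 (SE). Sorbs3, which codes for the adhesion adaptor vinexin, read 26.9, 21.9, 25.1 and 19.9 FPKM against 28.5 to 37.9 FPKM, and Sh3d19, an SH3 domain adaptor, 10.6 to 12.4 FPKM against 13 to 17.8 FPKM. Tp53i13, a p53-inducible gene, was at 2.5 ± 0.32 against 3.88 ± 0.483 FPKM (SD), and Vps33a, a vesicle fusion protein, at 4.9 ± 0.696 against 6.8 ± 0.554 FPKM. A pair of genes of haem and globin were among the 12. Ppox, an enzyme of haem synthesis, was at 1.49 ± 0.373 against 2.61 ± 0.452 FPKM, and the theta globin Hbq1b at 0.858 ± 0.18 against 1.65 ± 0.196 FPKM. Hbq1b also passed the filter only through the hypoxia hearts. Cfd, complement factor D, was at 5.3 ± 0.492 against 8.16 ± 1.85 FPKM with no overlap. The clock gene Per2 ranged from 3.69 to 7.78 FPKM against 6.88 to 12 FPKM, and Mcf2l, a guanine nucleotide exchange factor, from 8.9 to 15.2 FPKM against 14.8 to 24.1 FPKM. For these last genes the groups overlapped.

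**Figure D1:**
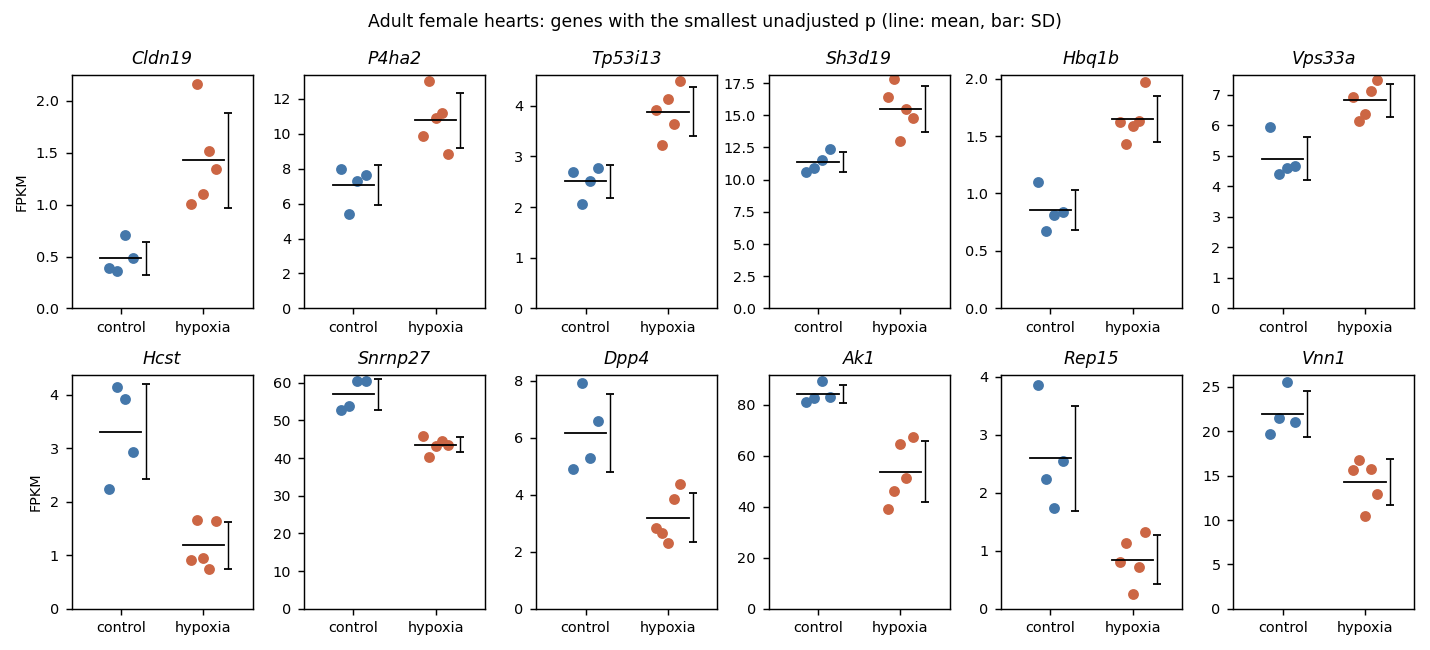
FPKM of each heart (points, 4 control and 5 hypoxia), with the group mean (line) and SD (bar), for the 6 genes of smallest unadjusted p that were higher (upper row) and the 6 that were lower (lower row) after prenatal hypoxia. The groups do not overlap in any of the 12 panels, a trait that the choice by smallest p favours, and every adjusted p is 0.9996.

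Among the genes that were lower, Hcst had the smallest unadjusted p of all genes, and its adjusted p was 0.9996 (limma). Hcst codes for DAP10, the signalling adaptor of the NKG2D receptor of natural killer and T cells. Its level rested on few scaled fragments, 5.67 per library on average. Control hearts had 2.24, 4.15, 3.92 and 2.93 FPKM, and hypoxia hearts 0.912, 1.66, 0.953, 0.752 and 1.64 FPKM. The log2 fold change was −0.98 ± 0.194 (SE). Prf1, which codes for perforin of cytotoxic lymphocytes, read 1.48, 1.42, 2.3 and 1.31 FPKM against 0.757, 0.723, 0.508, 0.814 and 0.871 FPKM, also without overlap. Its mean in hypoxia hearts was 0.735 FPKM, so it passed the filter only through the control hearts.

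Ak1, the adenylate kinase that interconverts adenine nucleotides, read 81.2, 82.6, 89.2 and 83.1 FPKM in control and 39.1, 46.2, 64.5, 51.4 and 67.2 FPKM in hypoxia hearts. The control hearts lay close together and the hypoxia hearts were scattered below them, with a log2 fold change of −0.66 ± 0.155 (SE). Dpp4, the peptidase that cleaves incretin hormones, read 4.89, 7.92, 5.3 and 6.58 FPKM against 2.84, 2.64, 2.29, 3.85 and 4.36 FPKM. Vnn1, a pantetheinase, was at 22 ± 2.52 against 14.3 ± 2.56 FPKM (SD). Snrnp27, a component of the spliceosome, was at 56.9 ± 4.2 against 43.5 ± 2.02 FPKM, and Pcnp, a nuclear protein, at 138 ± 6.87 against 98.1 ± 17.3 FPKM. Sh3bgr, a gene abundant in striated muscle, was at 283 ± 34.9 against 213 ± 15.5 FPKM. Klhl12, an adaptor of a ubiquitin ligase, was at 6.93 ± 1.12 against 4.73 ± 0.585 FPKM. The groups of these genes did not overlap. Rep15 (2.59 ± 0.908 against 0.848 ± 0.417 FPKM) and the transcription factor Mafa (1.56 ± 0.288 against 0.689 ± 0.198 FPKM) were at low levels. Both passed the filter only through the control hearts. Cited1, a transcriptional coactivator, had the largest log2 fold change of the 12, −1.16 ± 0.321 (SE), with 4.42 to 12.2 FPKM against 1.06 to 4.67 FPKM and an overlap of the groups.

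Gene lists of heart biology were then read by the number of members on each side of 0 and by their median, beside all genes tested, of which 48.2% were positive and 51.8% negative with a median of −0.007. These are descriptions of the 9 hearts. No list held a DEG.

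Genes of the contractile apparatus lay mostly below 0. Of 25 sarcomere genes, 20 were negative (80%) and the median log2 fold change was −0.09. Of these, Nexn and Nebl were nominally lower and Tcap, telethonin of the Z-disc, nominally higher (log2 fold change 0.405; named after its value was seen). Nexn, which codes for nexilin of the Z-disc, read 893, 764, 800 and 744 FPKM in control and 695, 622, 585, 638 and 656 FPKM in hypoxia hearts, with no overlap. Nebl, nebulette, was at 303 ± 32.6 against 234 ± 35 FPKM. For Myh7, the slow heavy chain, the ranges were 2070 to 3230 and 1050 to 3070 FPKM, and for titin (Ttn) the means were 690 ± 38.9 and 630 ± 61 FPKM. Without hypoxia 2, 15 of the 25 sarcomere genes (60%) were negative and the median was −0.02.

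Calcium handling followed a like pattern, with 12 of 18 members negative and a median of −0.05, and 9 of 18 without hypoxia 2. Asph, which also codes for the junctional proteins junctin and junctate, was at 112 ± 14.4 against 85.4 ± 11.3 FPKM, and Trdn, triadin of the calcium release complex, at 108 ± 9.85 against 87.5 ± 12.2 FPKM. The ryanodine receptor Ryr2 (390 ± 12.8 against 380 ± 25.1 FPKM), the calcium pump Atp2a2 (1880 to 2170 against 1280 to 2390 FPKM) and its inhibitor Pln (1650 ± 220 against 1540 ± 510 FPKM) differed by less than the spread between hearts. Ion channel genes split evenly, with 13 of 25 positive. The potassium channel Kcnq1 was at 14 ± 1.04 against 17.2 ± 2.57 FPKM. Of the 20 genes of adrenergic and muscarinic signalling 9 were positive, and none was nominal. The stress markers Nppb and Nppa, natriuretic peptides, were scattered: Nppb read 123, 121, 1030 and 215 FPKM in control and 102, 31.5, 342, 188 and 47.7 FPKM in hypoxia hearts.

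Prkce read 19, 15.1, 15.1 and 16.2 FPKM in control and 16.3, 10.9, 16.5, 21.7 and 19.2 FPKM in hypoxia hearts. The control values lay inside the range of the hypoxia values, and the log2 fold change was 0.02 (95% interval −0.36 to 0.41). Of 11 genes for protein kinases C and D, 6 were positive. Prkch, the eta form, was at 9.95 ± 1.91 against 12.9 ± 1.6 FPKM, with hypoxia 3 (10.4 FPKM) inside the control range. Prkca (7.15 ± 1.7 against 7.11 ± 1.38 FPKM) and Prkcd (10.1 ± 2.95 against 8.65 ± 2.73 FPKM) overlapped widely.

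Energy genes lay mostly below 0, and this rested on 1 heart. Of 39 oxidative phosphorylation genes, 28 were negative (median −0.06), of 20 citric acid cycle genes 16 (median −0.02) and of 21 fatty acid oxidation genes 14 (median −0.07). In none of these lists was a member nominal. Hypoxia 2 was the lowest heart in these lists, with mean log2 deviations from the 9 hearts of −0.51, −0.41 and −0.31. Without it, 15 of 39 oxidative phosphorylation genes were negative (median 0.04), 4 of 20 citric acid cycle genes (median 0.06) and 10 of 21 fatty acid oxidation genes (median 0.01), so that most members were then positive. Cox8b, a heart form of a cytochrome oxidase subunit, was at 7750 ± 1310 against 6280 ± 613 FPKM. Of 22 glycolysis genes 13 were negative, and 7 of 23 without hypoxia 2. The hexokinase Hk1 read 68.2, 71.8, 69.7 and 67.6 FPKM in control and 61.1, 56.4, 59, 53.4 and 66.4 FPKM in hypoxia hearts, with no overlap, while Hk2 (26.3 ± 0.869 against 25.1 ± 3.63 FPKM) overlapped.

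HIF targets gave 21 of 30 positive, with a median of 0.04. P4ha2 was the only nominal member. Ndrg1, a stress-responsive HIF target, read 10.9, 5.21, 17.4 and 11.5 FPKM in control and 20.4, 16, 29.8, 23.1 and 8.84 FPKM in hypoxia hearts. The growth factor Vegfa (371 ± 99.2 against 375 ± 57.6 FPKM), the glucose transporter Slc2a1 (8.19 ± 3.63 against 6.94 ± 1.65 FPKM) and the mitophagy receptor Bnip3 (123 ± 39.8 against 153 ± 71.3 FPKM) differed by less than the spread between hearts.

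Chaperones gave one of the most one-sided lists. Of 25 genes for heat shock proteins and protein folding, 23 were negative (92%), the median was −0.13, and 3 were nominally lower. Hspe1, the co-chaperonin of the mitochondrial matrix, read 182, 180, 172 and 191 FPKM in control and 139, 122, 146, 160 and 152 FPKM in hypoxia hearts, so that every hypoxia heart was below every control heart. Its partner Hspd1 had a log2 fold change of −0.33, and Hspb3, a small heat shock protein of muscle, was at 35.3 ± 5.39 against 23.9 ± 4.55 FPKM. The exceptions were Bag3 and Hspb7 (log2 fold changes 0.167 and 0.175). Without control 4 and hypoxia 3, which stood apart as described further on, 18 of 25 were negative, and without hypoxia 2, 17 of 25. Members of the endoplasmic reticulum stress list were mostly negative too, 17 of 22, but without control 4 and hypoxia 3 only 8 of 22 were. In the antioxidant list, 17 of 27 were negative, and 13 of 27 without hypoxia 2.

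Vessel genes were mostly positive. Of 30 angiogenesis genes 20 were positive (median 0.14), of 16 endothelial markers 12 (median 0.22) and of 13 mural cell markers, which mark smooth muscle and pericytes, 11 (median 0.29). Notch4, an endothelial Notch receptor, read 6.35, 4.37, 7.88 and 7.01 FPKM in control and 9.22, 12, 8.38, 11.3 and 8.03 FPKM in hypoxia hearts, with no overlap. The VEGF receptor Flt1 read 49.6, 35.7, 43.9 and 43.6 FPKM against 68.7, 62, 54.3, 64.6 and 46.2 FPKM, with 1 hypoxia heart inside the control range. Pecam1, an adhesion molecule of endothelium, was at 81.1 ± 14.3 against 101 ± 22.9 FPKM, and Cdh5, endothelial cadherin, at 74.7 ± 10.9 against 84.7 ± 15.7 FPKM. Other members went the other way. Of the endothelial markers 4 were negative, among them another VEGF receptor, Kdr (log2 fold change −0.154), and Emcn (−0.227). Of the angiogenesis genes 10 were negative, with Angpt1 the lowest (−0.472).

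The levels of these cell types differed between single hearts. The mean log2 deviation of the endothelial list ranged from −0.26 to 0.09 in control and from −0.12 to 0.38 in hypoxia hearts, with the highest value in hypoxia 2, and that of the mural list from −0.26 to −0.07 and from −0.21 to 0.62, with the highest in hypoxia 3. No member of either list that was found in the table was at 0 in all 9 hearts. Without hypoxia 2, the endothelial median was 0.08 with 11 of 16 positive. Without control 4 and hypoxia 3, the mural median was 0.14 with 10 of 12 positive. The part of cell makeup in the vessel values was not tested. In the list of angiotensin, endothelin and natriuretic peptide genes, which holds receptors, a peptide and processing enzymes, 9 of 10 were positive with a median of 0.19, or 0.1 without hypoxia 2. Its nominal members were 2 enzymes, both highest in hypoxia 2. Ece1, the endothelin-converting enzyme, read 47.5, 33.3, 45.9 and 48 FPKM in control and 65.8, 80.9, 51.9, 52.5 and 48.8 FPKM in hypoxia hearts, with no overlap. Ace, the angiotensin-converting enzyme, was at 3.98 ± 0.884 against 6.6 ± 2.44 FPKM.

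Extracellular matrix genes were positive in 28 of 36 cases (77.8%, median 0.09), and this count rested on the hearts that stood apart: without control 4 and hypoxia 3 it was 18 of 36 with a median of 0. Col4a1, a basement membrane collagen, was at 56.2 ± 4.37 against 70.9 ± 12.1 FPKM and elastin (Eln) at 10.3 ± 3.79 against 16.4 ± 4.85 FPKM. The fibrillar collagens Col1a1 (25.1 ± 12.1 against 26.8 ± 7.14 FPKM) and Col3a1 (64.1 ± 31.3 against 60 ± 19.5 FPKM) differed by less than their spread. In the TGF-beta and BMP list 18 of 29 were positive. The endothelial receptor Acvrl1 was at 12.4 ± 2.41 against 17 ± 2.56 FPKM.

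**Figure D2:**
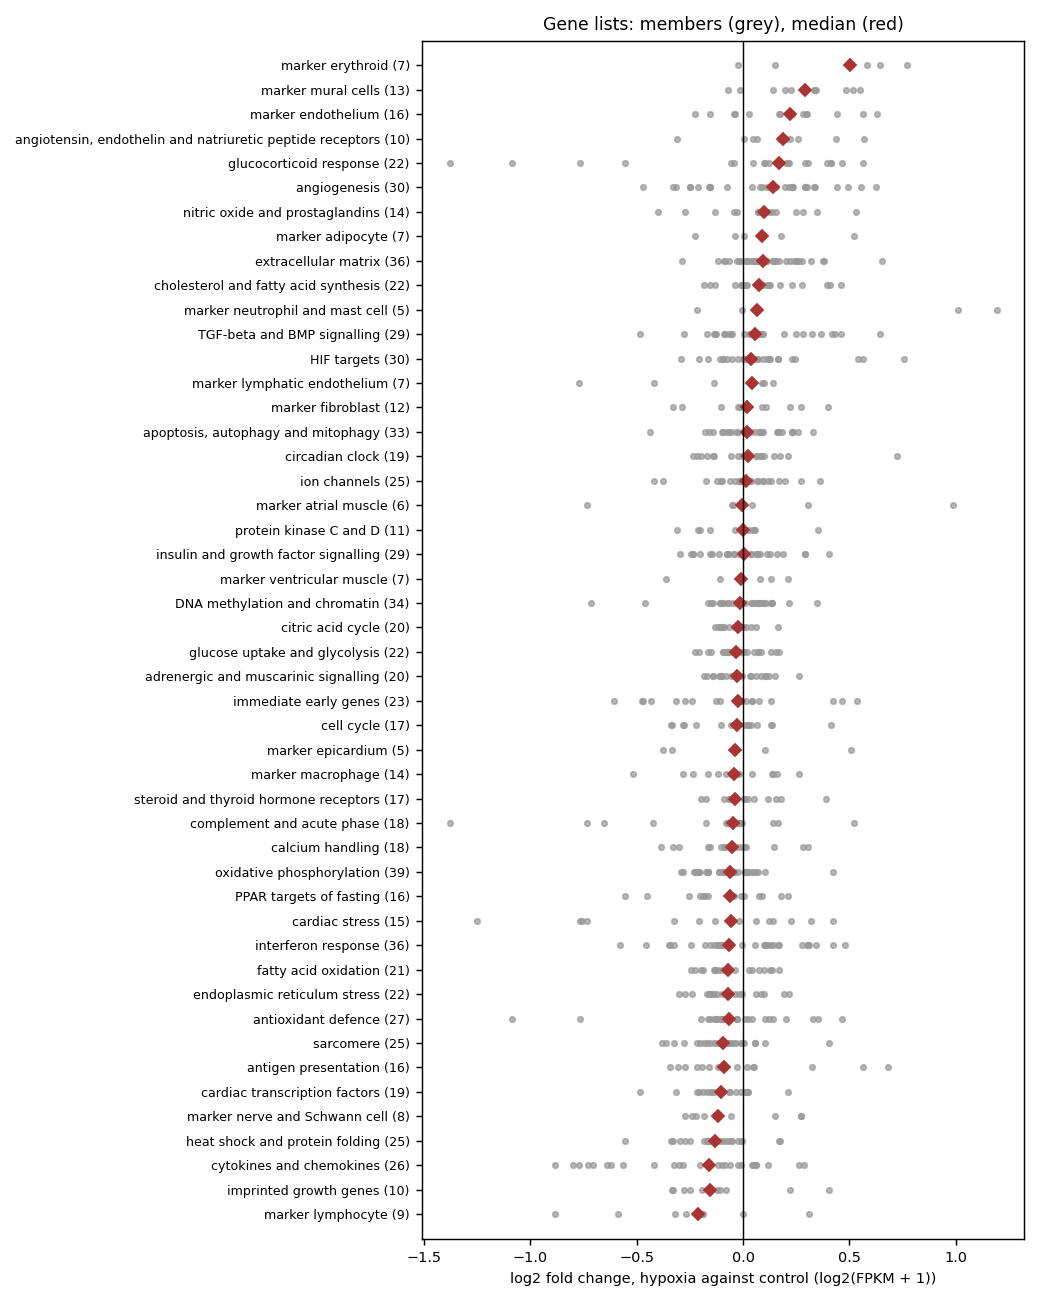
Log2 fold change of prenatal hypoxia against control for each member (grey) and the median (red diamond) of the gene lists with at least 5 genes tested, whose number is given in brackets. The medians run from −0.21 for lymphocyte markers to 0.50 for erythroid markers, and no member was a DEG.

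Blood and immune cell genes diverged. Of 7 erythroid genes 6 were positive with a median of 0.50. The beta globin Hbb read 149, 112, 154 and 183 FPKM in control and 301, 183, 325, 413 and 136 FPKM in hypoxia hearts. Hba1, an alpha globin, was at 471 ± 135 against 757 ± 301 FPKM, and Alas2, the erythroid enzyme of haem synthesis, at 4.12 ± 0.789 against 6.48 ± 2.16 FPKM. In each of these genes hypoxia 5 lay within the control range or below it. Near-identical globin copies share reads, so the split between them is uncertain. Whether the hearts kept different amounts of blood was not tested.

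Lymphocyte markers were on the other side, with 8 of 9 negative and a median of −0.21. Of the 20 markers listed only these 9 were tested, and Prf1 passed the filter only through the control hearts. Beside Prf1, the chemokine Ccl5 read 14.4, 11.3, 14.7 and 13 FPKM in control and 5.02, 3.31, 9.33, 11.3 and 7.49 FPKM in hypoxia hearts. The positive member was Nkg7 (log2 fold change 0.308), and Cd2 lay at −0.001. The mean log2 deviation of the list ranged from 0.02 to 0.24 in control and from −0.37 to 0.10 in hypoxia hearts. Without control 4 and hypoxia 3, 8 of 8 were negative. Among 14 macrophage markers, 9 were negative with a median of −0.04. Cd68, a lysosomal protein of macrophages, was at 15.7 ± 1.67 against 10.8 ± 2.21 FPKM with no overlap, whereas Cd163, a scavenger receptor of resident macrophages, was at 11.1 ± 2.66 against 12.7 ± 4.74 FPKM. Neutrophil and mast cell markers were positive in 3 of 5 with a median of 0.06, and in 2 of 5 without hypoxia 2. Among them S100a8, a neutrophil gene, was nominally higher and read 2.71, 1.17, 5.3 and 2.07 FPKM against 4.78, 19.8, 4, 12.3 and 3.32 FPKM.

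Several further lists were split about evenly. Fibroblast markers were positive in 7 of 12, but in 2 of 12 without control 4 and hypoxia 3. Cell cycle genes were positive in 8 of 17, insulin and growth factor genes in 15 of 29 and genes of DNA methylation and chromatin in 16 of 34, where Dnmt1 (5.07 ± 1.04 against 4.74 ± 0.666 FPKM), Dnmt3a (10.5 ± 1.21 against 11.5 ± 2.25 FPKM) and Tet2 (13 ± 1.74 against 12.8 ± 1.81 FPKM) overlapped. Steroid and thyroid hormone receptors were positive in 8 of 17. Other lists were more one-sided. Genes of apoptosis, autophagy and mitophagy were positive in 22 of 33 with a median of 0.02. Of 18 complement and acute phase genes 15 were negative (median −0.05), although Cfd, a member, was nominally higher. Without control 4 and hypoxia 3, 9 of 18 were negative. Cfd is also in the adipocyte list, where 5 of 7 were positive and it was the only nominal member. Cholesterol and fatty acid synthesis had 16 of 22 positive and 3 members nominally higher, Stard4 and Idi1 among them. Stard4, a sterol carrier, read 2.37, 2.11, 2 and 1.99 FPKM in control and 2.83, 3.41, 2.61, 3.3 and 3.35 FPKM in hypoxia hearts, with no overlap. Of 10 imprinted growth genes, 8 were negative (median −0.16), whereas Igf2, the fetal growth factor, was at 9.59 ± 0.451 against 13.6 ± 5 FPKM with its highest value, 21.7 FPKM, in hypoxia 5. Cardiac transcription factors were negative in 14 of 19 cases, and in 11 of 19 without hypoxia 2. Glucocorticoid response genes were positive in 16 of 22 with a median of 0.17, and in 13 of 22 with a median of 0.11 without hypoxia 2. Its nominal members went both ways. Dusp1, a phosphatase that this hormone induces, was nominally higher (17.4 ± 5.15 against 23.9 ± 4.4 FPKM). The metallothionein Mt1a (330 ± 256 against 133 ± 35.4 FPKM, no overlap) and lipocalin 2, Lcn2 (46.6 ± 43.7 against 14 ± 8.38 FPKM), were nominally lower, and control 4 had the highest level of both.

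The widest differences between these hearts did not follow the exposure. The first principal component held 23.4% of the variance and set control 4 (score 36.9) and hypoxia 3 (score 48.3) apart from the other 7 hearts, whose scores ran from −19.8 to −7.2. The group means differed by 2.85, with an exact two-sided permutation p of 0.77 over all splits of the hearts. Control 4 and hypoxia 3 carry the same number in their library names, and the part of that number in their scores was not tested. The genes that follow were chosen after their values had been seen.

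Control 4 and hypoxia 3 had high levels of the adhesion molecules that endothelium displays to leukocytes in inflammation. Sele, E-selectin, was at 36.4 FPKM in control 4 and 27.5 FPKM in hypoxia 3, against 0.523 to 1.27 FPKM in the other 7 hearts and 1.14 to 2.64 FPKM in the 10 male hearts. Selp, P-selectin, was at 35.7 and 32.3 FPKM against at most 0.458 FPKM in the other 7 hearts. Icam1 reached 79.9 and 108 FPKM against 2.59 to 4.67 FPKM, and Vcam1 reached 59.7 and 81.4 FPKM against 1.36 to 3.49 FPKM. For each of these genes both hearts exceeded the other 7 female hearts by more than an order of magnitude, while the highest male heart for Vcam1 was at 8.64 FPKM.

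Chemokines and cytokines were also highest in these hearts. Cxcl1, which attracts neutrophils, was at 147 FPKM in control 4 and 50 FPKM in hypoxia 3 against 0.342 to 2.54 FPKM. Ccl2, which attracts monocytes, was at 97 and 59 FPKM against 2.22 to 7.85 FPKM in the other female hearts and up to 29.4 FPKM in male hearts, and Il6 at 34.2 and 4.97 FPKM against at most 0.262 FPKM. The values were higher in control 4 than in hypoxia 3 for these genes. In 16 of 26 cytokine and chemokine genes (61.5%), 18 of 23 immediate early genes (78.3%) and 24 of 36 interferon response genes (66.7%), control 4 and hypoxia 3 were the highest of the 9 hearts. Over all genes tested, that was so for 9.04%. Without these 2 hearts 21 cytokine and chemokine genes reached the filter of 1 FPKM, so some entered only through them.

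The promoters of 3 of these genes, Cxcl1, Cxcl2 and Il6, are shown because they hold a word of the kind bound by NF-kB, the transcription factor that induces cytokines in inflammation. Each line gives the 150 bases before the transcription start, 5′ to 3′ on the gene's strand, from RefSeq (GRCr8), and capitals mark GGG, any 2 bases and TTTCC, or the reverse complement.
Cxcl1, chr14:17479322-17479471, minus strand: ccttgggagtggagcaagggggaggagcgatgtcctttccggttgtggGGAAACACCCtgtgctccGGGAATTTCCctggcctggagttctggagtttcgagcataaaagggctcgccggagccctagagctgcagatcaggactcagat
Cxcl2, chr14:17467256-17467405, minus strand: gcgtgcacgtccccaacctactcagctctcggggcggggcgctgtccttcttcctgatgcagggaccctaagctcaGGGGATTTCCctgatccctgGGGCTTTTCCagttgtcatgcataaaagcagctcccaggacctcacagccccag
Il6, chr4:5894576-5894725, minus strand: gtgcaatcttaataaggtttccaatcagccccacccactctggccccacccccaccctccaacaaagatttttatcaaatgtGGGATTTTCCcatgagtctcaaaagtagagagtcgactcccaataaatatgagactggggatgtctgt
Cxcl1 and Cxcl2 each hold 2 matches in these bases and Il6 holds 1. In the full 300-base windows, 250 before and 50 after the start, the word was found on either strand in 3 of the 20 cytokine and chemokine genes with a promoter in the RefSeq table (of 26 tested), in 0 of 14 immediate early genes, in 1 of 16 circadian clock genes and in 1.53% of all 33469 promoters. In all, 4 words were searched. For each, the lists were counted by gene, over any of its promoters, and the whole set by promoter (33469 promoters of 27457 genes). A looser word, GGG, any 3 bases and TTCC, takes in every match of the first, so its counts include those above. It was in 6 of the 20, in 1 of the 14, in 1 of the 16 and in 5.37% of all promoters. The word TGACGTCA, the cAMP response element, was in 5 of the 14 immediate early genes (Btg2, Dusp1, Ier2, Jund and Maff), in 2 of the 20 cytokine genes, in 0 of 16 clock genes and in 1.83% of all promoters. CACGTG, the E-box bound by clock factors, was in 5 of 16 circadian clock genes, in 3 of the 14 immediate early genes, in 0 of the 20 cytokine genes and in 6.42% of all promoters. The words and genes were chosen with the values known, and a match is a description of letters.

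Immediate early genes, which cells transcribe within minutes of a stimulus, stood high in the same 2 hearts. Fos was at 41.9 FPKM in control 4 and 18 FPKM in hypoxia 3 against 0.757 to 3.6 FPKM in the other 7 hearts. Egr1 was at 296 and 101 FPKM against 10.2 to 13.3 FPKM, Junb at 234 and 87.4 FPKM against 11.3 to 22.6 FPKM, and Atf3 at 38.8 and 83.7 FPKM against 0.265 to 2.27 FPKM. Socs3, the feedback inhibitor of cytokine signalling, was at 147 and 31.8 FPKM against 2.21 to 11.6 FPKM, and the metallothionein Mt2A at 699 and 190 FPKM against 8.69 to 46.7 FPKM. In every one of these genes the 10 male hearts stayed below both, with at most 34.5 FPKM for Egr1 and 69.7 FPKM for Mt2A.

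**Figure D3:**
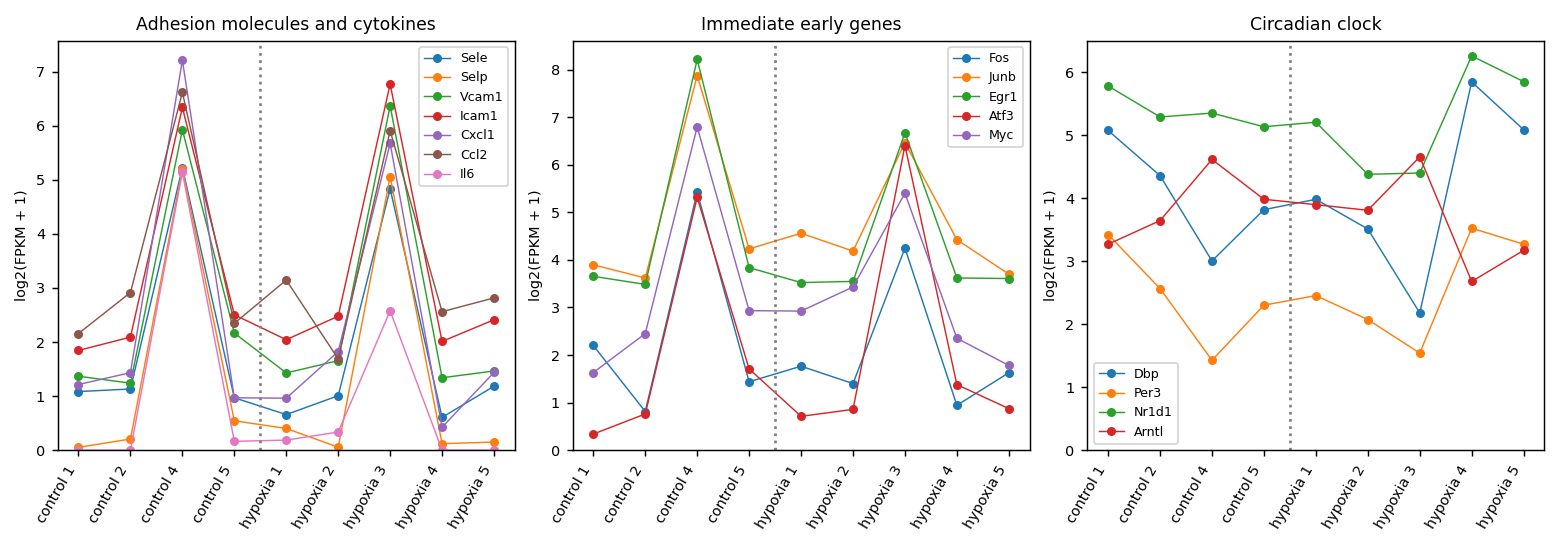
Levels in each of the 9 hearts, as log2(FPKM + 1), for adhesion molecules and cytokines, immediate early genes and circadian clock genes, with a dotted line between control and hypoxia hearts (lines only join the points of one gene). Control 4 and hypoxia 3 are the highest hearts for every gene in the left and middle panels, and they are the highest for Arntl and the lowest for Dbp in the right panel.

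Clock genes also varied from heart to heart. The output gene Dbp ranged from 3.53 FPKM in hypoxia 3 and 7.02 FPKM in control 4 to 56.5 FPKM in hypoxia 4, and Per3 from 1.69 to 10.5 FPKM. Arntl, which codes for the activator BMAL1, ran the other way, from 5.4 FPKM in hypoxia 4 to 23.5 FPKM in control 4 and 24.2 FPKM in hypoxia 3. The repressor Nr1d1 was lowest in hypoxia 2 (19.8 FPKM) and highest in hypoxia 4 (75.5 FPKM). The groups overlapped in each of these genes, and the hour at which each heart was taken was not analysed here. Per2, listed above among the higher genes, belongs to this clock.

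**Figure D4:**
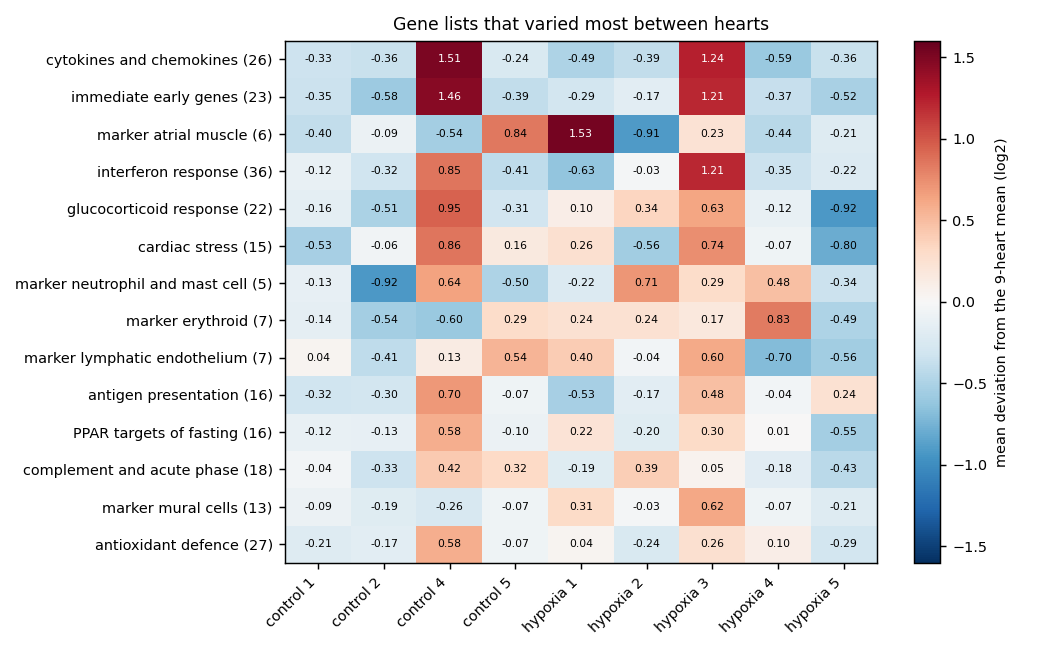
Mean deviation of each gene list from the mean of the 9 hearts (log2, red above and blue below) for the 14 lists, with at least 5 genes tested, that varied most between hearts. Cytokines (1.51 and 1.24) and immediate early genes (1.46 and 1.21) are highest in control 4 and hypoxia 3, and atrial muscle markers (1.53) in hypoxia 1.

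With control 4 and hypoxia 3 both left out, there were again 0 DEGs, and 483 genes were nominal, against 418 with all 9 hearts. The cytokine list then had 11 of 21 members positive (median 0.02), against 7 of 26 (median −0.16) with all hearts.

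Male hearts of the same age, 5 control and 5 after prenatal hypoxia, gave values beside the female ones from separate animals. The litters were not named, so male and female hearts may share dams. Of the 24 female genes given above, 22 were tested in males, and 17 of them (77.3%) had the same sign there, against 56.6% of 12633 genes tested in both sexes. Mcf2l had a male log2 fold change of 0.42 ± 0.104 (SE), P4ha2 of 0.36 ± 0.126 and Per2 of 0.37 ± 0.124. Ak1 (−0.02 ± 0.141) and Cldn19 (−0.01 ± 0.197) lay near 0 in males, and Hbq1b (−0.28 ± 0.21) had the opposite sign. No male gene was a DEG either by limma (0% of 13327, smallest adjusted p 0.437, 5.79% with an unadjusted p under 0.05). The study itself reported DEGs in adult male hearts at these cut-offs with another method, Cuffdiff, which was not rerun here. In fetal hearts, 17 of the 24 were tested and 5 (29.4%) had the same sign, against 49.4% of 11867 genes.

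**Figure D5:**
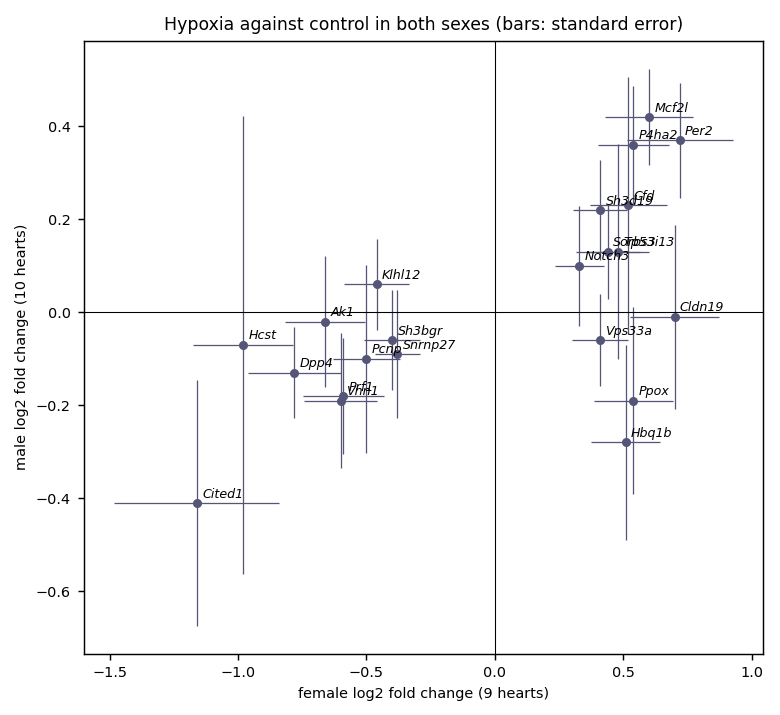
Log2 fold change of prenatal hypoxia against control in female hearts (horizontal) and male hearts (vertical), with standard errors, for the 22 of the 24 female genes of smallest unadjusted p that were tested in both sexes. All lie far from 0 on the female axis, on which they were chosen, and 17 lie on the same side of 0 in males.

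The interaction of sex and hypoxia called 0 of 13199 genes (0%), with a smallest adjusted p of 0.858 and 2.92% of genes at an unadjusted p under 0.05. With array weights it called 3 genes, Ccdc66, RGD1359634 and Rpp14. Vamp5, a vesicle fusion protein of muscle, had the smallest unadjusted p (adjusted p = 0.858, limma), with a log2 fold change of 0.45 ± 0.156 (SE) in females and −1.14 ± 0.275 in males, but it rested on 4.44 scaled fragments per female library on average. Best1, a chloride channel, had −0.52 ± 0.147 and 0.31 ± 0.11. Best1 read 31, 28.5, 34.9 and 36.8 FPKM in female control hearts and 30.9, 22.2, 21.9, 18.2 and 20.9 FPKM in female hypoxia hearts, and without hypoxia 1, the one hypoxia heart within the control range, it alone met the DEG criteria for the interaction. Mcrs1 (−0.26 and 0.16), the ribonuclease P subunit gene Rpp14 (0.28 and −0.32) and the DNA repair gene Xrcc1 (−0.32 and 0.27) also had opposite signs in the sexes. These genes, Vamp5 and Best1 were chosen by smallest interaction p, a choice that favours opposite signs. Cacng7 (0.742 ± 0.256 against 1.53 ± 0.244 FPKM in female hearts) was too low in males to be tested there. In females it passed the filter only through the hypoxia hearts. The number of olfactory receptor genes above 0, of 1386 listed, ran from 38 to 1106 in the male libraries, 4 of which were at 38 to 53, and from 22 to 48 in the 9 female libraries, and the part of this signal in the interaction values was not tested.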

How the data were processed

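The authors trimmed reads of rRNA-depleted total RNA libraries with Trimmomatic 0.35, aligned them with TopHat2 2.1.1 to the rat genome Rnor6.0 and computed gene levels with Cufflinks 2.2.1. The deposited adult table holds FPKM, and a second deposited table holds fragments scaled by the authors to a common library size and rounded, a signal that is not a raw read count, so no count model was fitted. Samples were grouped by their labels. Genes whose mean level reached 1 FPKM were analysed on the log2(FPKM + 1) scale with limma 3.58.1 in R 4.3.3, using a variance trend and Benjamini-Hochberg adjustment over all genes. Fold changes on this scale understate the change of low genes. The code was tested on simulated data. DEGs needed an adjusted p under 0.3 together with a change of more than 1.2-fold. These tables do not carry raw reads, and the read totals listed by the study were not used here.

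The hearts, genes and gene lists were chosen with earlier results of these data known. Named genes were the 12 of smallest unadjusted p per direction among those differing by more than 1.2-fold, leaving out uncharacterised, small RNA and receptor family symbols, the 2 of smallest p in each list, Prkce, 7 heart identity genes and 6 interaction genes. Others, among them all genes of the heart-to-heart comparison, were chosen after their values were seen. Alternatives varied the pseudocount, filter, scaling, weights, block and libraries. No 2 of the 9 libraries were copies of each other, with at most 2.4% of genes at equal values. Promoters are RefSeq GRCr8, a build other than that of the files, and no other coordinates are given.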

Additional observations from a re-analysis of the deposited data

Results flagged for a closer look

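In 11 of 248 groups of 4 or 5 hearts examined, 1 heart lay far from the rest by Dixon's criterion, which chance meets in about 1 in 20 groups. Control 4 was the highest control heart for Nppb (1030 FPKM, others 121 to 215), Mt1a (713 FPKM, others 188 to 220), Prf1 (2.3 FPKM, others 1.31 to 1.48), Idi1 (3.29 FPKM, others 1.6 to 1.82) and the first principal component (36.9). Hypoxia 3 was the highest hypoxia heart on that component (48.3). Hypoxia 1 stood above the other hypoxia hearts for Myl7 (559 FPKM, others 10.8 to 109) and Tnnt2 (19800 FPKM, others 14900 to 15900). Hypoxia 5 stood above them for Kcnip2 (3.17 FPKM, others 1.48 to 1.79) and Decr1 (149 FPKM, others 104 to 116). Control 2 was the lowest control heart for Ece1 (33.3 FPKM, others 45.9 to 48).

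The library labelled female control 3, which entered no comparison, had Y-linked RNA at 18.1 FPKM for Ddx3, 13.7 FPKM for Eif2s3y and 3.82 FPKM for Kdm5d, levels within or just below those of the male libraries and far above the other female ones.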

How the results depend on the processing

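The count of female DEGs was 0 under every alternative run, including the library labelled female control 3 kept in, and the nominal genes (unadjusted p under 0.05, more than 1.2-fold) ranged from 365 to 503 when 1 heart was left out at a time. That count was 418 with all 9 hearts, 247 with a mean FPKM of at least 5, a smaller set of 7980 genes, and 620 with no filter, a larger set of 21916 genes. The interaction of sex and hypoxia called 0 genes, but 3 with array weights (Ccdc66, RGD1359634 and Rpp14), and from 0 to 1 when 1 heart was left out (Best1 without hypoxia 1). With the number in the title as a replicate block, the count of DEGs was 0 and 467 genes were nominal. With the number in the library name, an alternative added after seeing the data, these were 0 and 605. After removal of group means, same-numbered hearts correlated at −0.087 to 0.021 by title and at −0.059 to 0.262 by library name. Pairs of other numbers reached 0.294, so the numbers were not taken to pair the hearts. The value of 0.262 belonged to control 4 and hypoxia 3, the hearts that stood apart, which share the number in the library name. The part of that number in their levels was not tested. The alternatives without control 4 and hypoxia 3 and without small RNA genes were also added after seeing the data. Levels near 1 FPKM rest on few fragments, which limits genes such as Hcst and Rep15. Of the list medians, that of neutrophil and mast cell markers (0.06, 5 genes) was 0.93 without control 4 and 1.1 with a mean FPKM of at least 5, and that of nerve and Schwann cell markers (−0.12, 8 genes) was 0.12 without control 2 and 0.15 with that filter.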
